A study of Mus musculus with 33 samples.

Results

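The BCL2 family decides whether a mammary cell lives or dies by the mitochondrial route, and 10 of its genes were followed here by symbol in 4 tables of deposited RNA-seq values from mouse mammary cells. They are the survival genes Bcl2, Bcl2l1 (BCL-XL) and Mcl1, the BH3-only genes Bcl2l11 (BIM), Bmf, Bid, Bik, Bad and Pmaip1 (NOXA), and the effector gene Bak1. All 10 symbols were found in each table, which held 22854 to 26232 genes. Of the 33 libraries, 6 came from HC11 cells, a mouse mammary epithelial line, given the histone deacetylase inhibitor trichostatin A (TSA, 300 nM for 24 h) or its solvent DMSO, 3 libraries each. A further 4 came from HC11 cells with 1 guide RNA against Trps1 (sgTrps1) or 1 scrambled guide (sgScr), 2 each. Primary mammary organoids gave 12 libraries: Cdh1F/F;Trps1+/+ (Trps1+/+ below), Cdh1F/F;Trps1F/F and Cdh1+/F;Trps1F/F, each transduced with AdCre, a Cre-carrying adenovirus, and harvested at day 14 or day 28, 2 libraries per genotype and day. Every organoid group thus carried at least 1 floxed Cdh1 allele, and Cre reached whichever cells the virus entered. Mammary tumors gave 11 libraries, all with WAP-cre, in which a milk protein promoter drives Cre in the mammary epithelium, and with Cdh1F/F: 8 tumors of 6 mice were Trps1F/F and 3 tumors of 3 mice were Trps1+/+. The labels put the Trps1F/F tumors into subgroup 1 (4 tumors of 3 mice), subgroup 2 (2 tumors of 2 mice) and subgroup 3 (2 tumors of 2 mice), without saying how; mouse 18LCO025 gave 3 of these tumors, in subgroups 1 and 3. Nothing in the labels says that libraries of 1 cell or organoid group came from separate cultures, so p-values there measure the spread between these libraries, which may be technical.

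In this pathway the survival proteins sit on the outer mitochondrial membrane and hold the effectors BAK and BAX in check. BH3-only proteins are made or activated by stress, by loss of attachment or by withdrawal of growth factors; they bind the survival proteins and free the effectors, which then open the membrane and release cytochrome c to the caspases. In the mammary gland this route clears the secretory epithelium after weaning, and BIM and BMF are known for removing epithelial cells that have lost contact with matrix, as in the hollowing of acini.

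Trps1 encodes a GATA-type repressor and Cdh1 encodes E-cadherin, and their reads check the labels in part, since reads outside a deleted part still count. On the deposited scale, log2(normalized count + 1), Trps1 stood at 13.94 to 14.02 in DMSO and 10.90 to 10.97 in TSA. It stood at 13.80 and 13.89 in sgScr and 13.85 and 13.91 in sgTrps1, so read counts give no check of the guide. In organoids it ran from 13.50 to 13.96 in the 4 Trps1+/+ libraries and from 9.45 to 11.39 in the 8 with floxed Trps1, with Cdh1+/F Trps1F/F (9.45 to 10.04) below Cdh1F/F Trps1F/F (11.05 to 11.39). Cdh1 ran from 13.04 to 13.94 in all 12 organoid libraries, so its whole-gene reads do not show its recombination. Libraries held 14833245 to 38708003 reads. Markers of other cells were present: summed over 10 fibroblast genes, the normalized count per organoid library ran from 9521 to 743110, and 8 skeletal muscle genes summed to 205 to 132370 in tumors. In HC11 cells the luminal markers summed to 5812 to 16521 and the basal markers to 39808 to 120260; Cldn7 had no reads in TSA and Krt18 none in sgScr. In bulk RNA, fewer cells of a type and less RNA per cell cannot be told apart.

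Averaged over all libraries of a table, Mcl1 was per length the most abundant member in each of the 4 tables and Bak1 was second. The mean normalized count per kb of exon was 1069 for Mcl1 and 656 for Bak1 in the TSA table, 1717 and 436 in the guide table, 2376 and 499 in the organoids, and 1999 and 608 in the tumors. Within groups the order could differ. In DMSO, Bak1 (1037 per kb) was level with Mcl1 (1038) and lay above it in replicates 2 and 3. Bid was above Bak1 in TSA (395 against 274) and in sgScr (469 against 420). Pmaip1 was above Bak1 in Cdh1F/F Trps1F/F organoids at day 14 (637 against 504) and again at day 28. Bcl2l1 was above Bak1 in tumor subgroup 1 (563 against 474). Mcl1 encodes a short-lived survival protein whose amount is set largely by its turnover. By the table means Bcl2, the founding survival gene, was among the 3 lowest in 3 of the tables. It had 44.9 (TSA table), 74.0 (organoids) and 105 (tumors) per kb there, and stood at 64.9 in the guide table. HC11 cells had next to no reads of Bik and Pmaip1. Bik had 0 reads in 9 of the 10 HC11 libraries and 2 reads in the other, TSA replicate 2. Pmaip1 had 0 to 2 reads per library in the TSA table and 0 to 5 in the guide table. Both were expressed in organoids, where they averaged 144 (Bik) and 306 (Pmaip1) per kb, and in tumors, with 59.0 and 158. Each table has its own normalization, and no level is compared across tables.

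TSA moved the members in both directions, with the 2 BH3-only genes of the detachment response rising and survival genes and the effector falling. A gene was called when its limma adjusted p (Benjamini-Hochberg over all genes tested) was under 0.05. Of 8 members tested, Bcl2l11 and Bmf rose, Bcl2, Bcl2l1, Bid and Bak1 fell, and Mcl1 and Bad were not called; Bik and Pmaip1 had too few reads to test. These 6 of 8 are 75.0% of the members, and 85.4% of all 12883 genes tested were called, so the number of calls is no feature of the family. The median difference was -0.31 over the 8 members and 0.01 over all genes.

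Bmf had 60.4, 49.2 and 42.7 normalized counts in the 3 DMSO libraries and 577, 561 and 588 in the 3 TSA libraries. The groups were far apart, an 11.2-fold rise (log2 difference 3.49, SE 0.124, limma adjusted p = 9.44e-11). BMF is a BH3-only protein held on the actin-myosin skeleton until a cell detaches. Bcl2l11 had 235, 241 and 263 normalized counts in DMSO and 1536, 1559 and 1626 in TSA. All 3 TSA libraries lay above all 3 DMSO libraries, and the group mean of the log2 values gave a 6.38-fold rise (log2 difference 2.67, SE 0.0602, limma adjusted p = 2.32e-12). BIM binds all main survival proteins.

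Because Bcl2l11 and Bmf rose together while Bak1 fell, 1 promoter of each is shown from RefSeq (GRCm38.p6, 250 bases before to 50 after the start, 5′ to 3′ on the gene's strand). Capitals mark matches on either strand to TGTTTAC, a core that FOXO factors bind, and to GGGCGG, the GC box; neither the FOXO nor the GC box overlaps the other here. They lie at chr2:128125788-128126087 (Bcl2l11, plus strand), chr2:118549637-118549936 (Bmf, minus strand) and chr17:27028578-27028877 (Bak1, minus strand).
Bcl2l11: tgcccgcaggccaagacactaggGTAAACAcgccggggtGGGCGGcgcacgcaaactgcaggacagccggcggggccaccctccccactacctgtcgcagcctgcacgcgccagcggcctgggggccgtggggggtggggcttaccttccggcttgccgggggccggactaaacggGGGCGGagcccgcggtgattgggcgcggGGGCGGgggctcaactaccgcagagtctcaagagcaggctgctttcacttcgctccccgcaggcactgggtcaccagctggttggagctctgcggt
Bmf: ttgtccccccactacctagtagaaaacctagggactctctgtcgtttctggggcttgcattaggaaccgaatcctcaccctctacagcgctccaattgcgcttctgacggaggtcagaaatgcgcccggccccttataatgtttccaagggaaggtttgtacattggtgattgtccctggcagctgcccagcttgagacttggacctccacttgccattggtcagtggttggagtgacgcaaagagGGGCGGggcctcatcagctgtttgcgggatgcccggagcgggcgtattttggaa
Bak1: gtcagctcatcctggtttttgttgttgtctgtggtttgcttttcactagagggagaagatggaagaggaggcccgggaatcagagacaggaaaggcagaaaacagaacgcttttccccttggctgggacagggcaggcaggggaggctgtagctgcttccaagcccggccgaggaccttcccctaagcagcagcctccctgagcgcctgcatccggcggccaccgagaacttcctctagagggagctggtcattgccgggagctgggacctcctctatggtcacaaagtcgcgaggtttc
The Bcl2l11 promoter was 71.0% G and C with 27 CpG sites, the Bmf promoter 55.3% with 13, and the Bak1 promoter 58.3% with 11. In capitals stand 1 FOXO match and 3 GC boxes in Bcl2l11, 1 GC box in Bmf and none in Bak1. The table holds 1 more Bcl2l11 promoter, with 3 GC boxes and no FOXO match. It also holds 2 more Bmf promoters, which have neither motif, so these letters do not set every promoter of the rising genes apart from Bak1. Counted below are 14 promoters of 8 of the members. Bik is not in the table and Pmaip1 was left out before counting, so the counts say nothing of either gene. Among all 32851 promoters of this length, 3.65% held the FOXO letters and 35.7% the GC box, against 1 and 7 of the 14. The GATA letters AGATAA (11.2% of all promoters) were in 1 of the 14, at Bcl2l1, and TGATAA (9.05%) in 0. The AP-1 letters TGANTCA (7.81%) and the E-box CACGTG (7.15%) were in 0 of the 14. A match describes letters only, and a missing match says nothing of a factor.

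Of the survival genes, Bcl2 and Bcl2l1 fell in TSA and Mcl1 was not called. The log2 level of Bcl2 was 9.09, 9.03 and 9.16 in DMSO and 8.08, 8.15 and 8.12 in TSA (log2 difference -0.97, SE 0.0681, limma adjusted p = 4.49e-08). Bcl2l1, whose product guards most epithelial cells, stood at 10.82, 10.92 and 10.93 in DMSO and at 9.74, 9.63 and 9.63 in TSA (log2 difference -1.23, SE 0.0492, limma adjusted p = 2.57e-10). In both genes every TSA library lay below every DMSO library. Mcl1 stood at 11.80, 11.84 and 11.74 in DMSO and 11.91, 11.86 and 11.86 in TSA, with a 95% interval of the difference from 0.00 to 0.17 (limma adjusted p = 0.0564). This small rise was called with libraries shifted to a common median (0.12, adjusted p = 0.00949), with quantile normalization (0.21, 0.000219), with voom (0.16, 0.00158) and without DMSO replicate 2 (0.11, 0.0415).

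Bak1 showed the largest fall of the members in TSA. It stood at 11.19, 11.35 and 11.32 in DMSO and 9.33, 9.36 and 9.41 in TSA, 3.78-fold lower (log2 difference -1.92, SE 0.0503, limma adjusted p = 7.47e-12). BAK is one of the pair of proteins that open the outer membrane. The other, Bax, fell less (log2 difference -0.30, adjusted p = 0.000468). Bid, cut by caspase-8 to link death receptors to mitochondria, stood at 11.09, 11.05 and 11.11 in DMSO and 10.40, 10.46 and 10.51 in TSA (log2 difference -0.63, SE 0.0428, limma adjusted p = 3.46e-08). Bad, which growth factor signals keep phosphorylated and inactive, overlapped between groups at 9.08, 9.09 and 9.16 against 9.01, 9.15 and 9.22 (log2 difference 0.01, 95% interval -0.13 to 0.16). The other BH3-only gene Bbc3 (PUMA), a p53 target, rose (0.75, adjusted p = 0.000508). Bok, another effector-like gene, was not called (-0.45, adjusted p = 0.217). Exons of Bid, Bad and Bak1 share positions with Bcl2l13, Gpr137 and Ggnbp1 on the other strand, and the labels do not say whether strand was kept. In TSA these neighbours differed by 0.10 (Bcl2l13), -0.23 (Gpr137) and 0.02 (Ggnbp1).

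Genes around the members also moved in TSA, where 85.4% of all genes tested were called. Of 15 further family genes 8 were tested, of which 4 rose and 3 fell. Of 19 caspase and apoptosome genes 18 were tested, of which 8 rose and 9 fell. Casp8, which cuts BID, fell (-2.63), as did the caspase inhibitor Xiap (-1.68) and the mitotic survival gene Birc5 (-1.11), while Dffa, which encodes the inhibitor and chaperone of a caspase-activated DNase, rose (1.52). Of 21 genes that regulate the members 20 were tested, of which 10 rose and 9 fell. Akt1, whose kinase phosphorylates BAD and FOXO factors, fell by 1.93 and Trp53, which encodes p53, fell by 1.93 on the log2 scale. The FOXO genes rose (Foxo1 by 0.63, Foxo3 by 0.94 and Foxo4 by 1.17). Cell division genes fell in 10 of 10 cases, and their summed normalized count was 93830 to 96931 in DMSO and 32252 to 33276 in TSA. Basal epithelial markers summed to 104230 to 120260 in DMSO and 47893 to 49651 in TSA; the part of either in the members' changes was not tested.

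**Figure D1:**
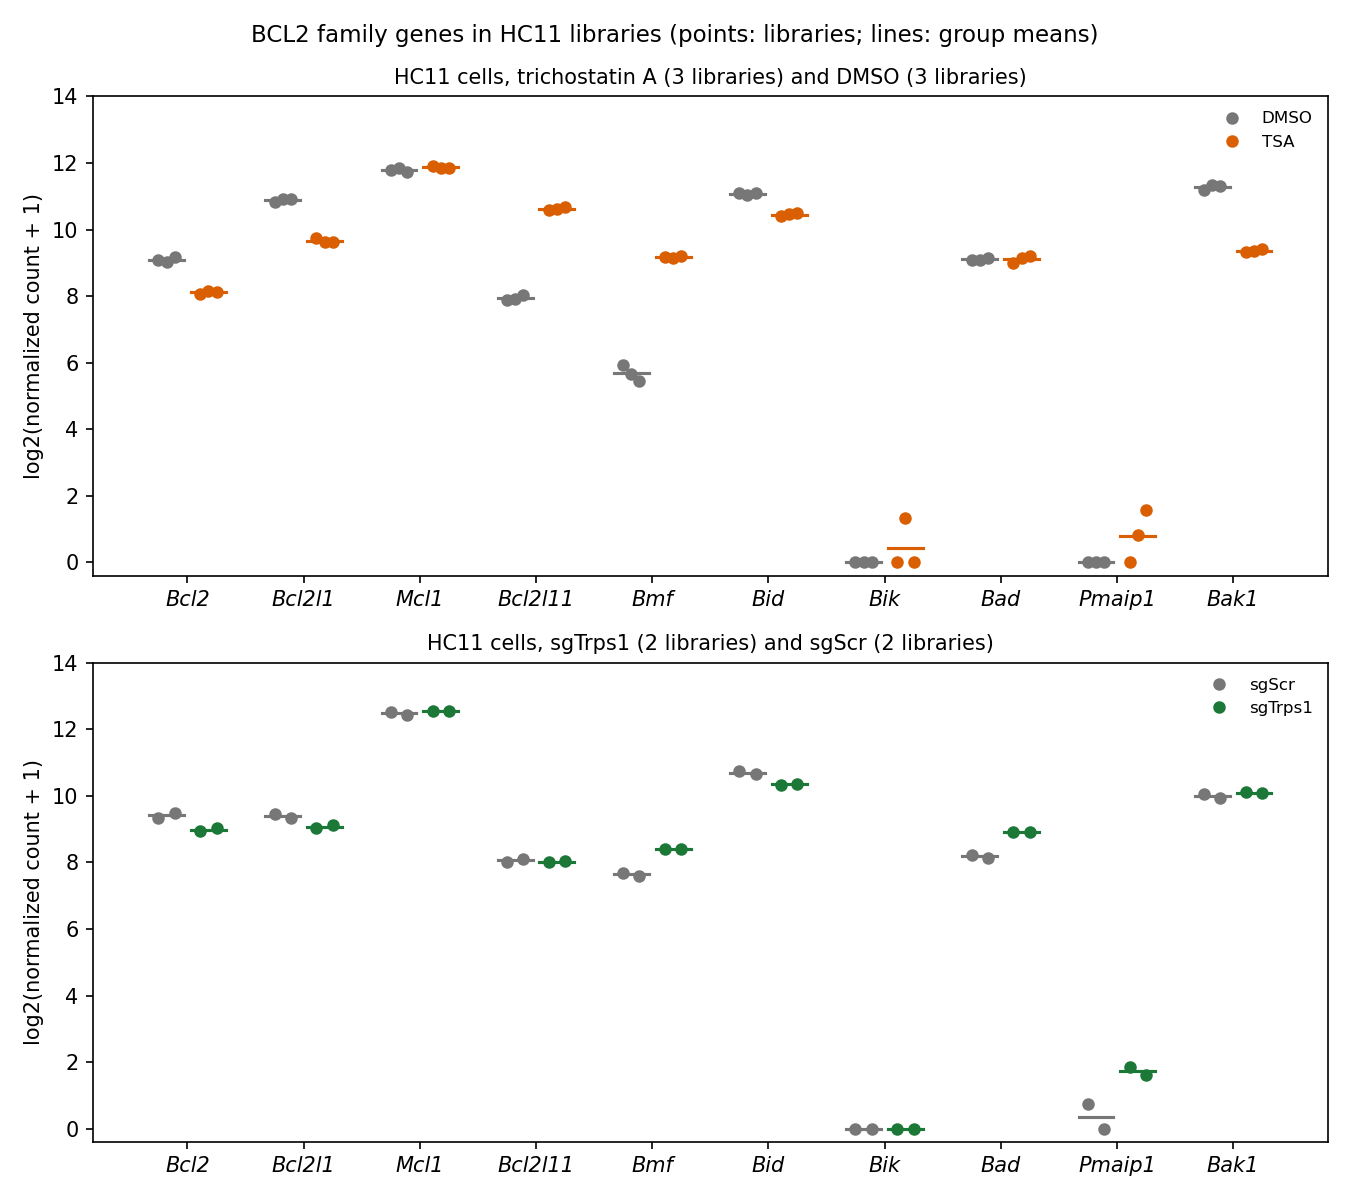
Level of each member, log2(normalized count + 1) on the y axis, in 6 HC11 libraries treated with TSA or DMSO (upper panel) and 4 with sgTrps1 or sgScr (lower panel); points are libraries and lines are group means. Bmf and Bcl2l11 stand higher and Bak1, Bcl2l1, Bcl2 and Bid lower in all 3 TSA libraries, and Bik and Pmaip1 lie at or near 0 in both panels.

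With the Trps1 guide the changes were smaller. Bmf and Bad rose and Bcl2, Bcl2l1 and Bid fell in sgTrps1, and Mcl1, Bcl2l11 and Bak1 were not called. These 5 of 8 members tested are 62.5%, beside 67.4% of all 12430 genes. The medians were 0.02 over the members and 0.02 over all genes. Bcl2 stood at 9.35 and 9.48 in sgScr and 8.94 and 9.03 in sgTrps1 (log2 difference -0.43, SE 0.0750, limma adjusted p = 0.000157). Bcl2l1 stood at 9.45 and 9.33 in sgScr and 9.03 and 9.13 in sgTrps1 (-0.31, SE 0.0745, limma adjusted p = 0.00186). Both sgTrps1 libraries thus lay below both sgScr libraries for these survival genes. Mcl1 stood at 12.53 and 12.42 against 12.56 and 12.56, with a 95% interval of the difference from -0.06 to 0.22 (limma adjusted p = 0.275).

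Among the BH3-only genes, Bmf stood at 7.70 and 7.61 in sgScr and 8.40 and 8.41 in sgTrps1 (log2 difference 0.75, SE 0.0907, limma adjusted p = 4.82e-06). Bad stood at 8.23 and 8.14 in sgScr and 8.93 and 8.93 in sgTrps1 (0.74, SE 0.0805, limma adjusted p = 1.75e-06). Its other-strand neighbour Gpr137 also rose (0.35, adjusted p = 0.00370), so a part of the Bad reads cannot be assigned with certainty. Bid stood at 10.74 and 10.66 in sgScr and 10.34 and 10.37 in sgTrps1 (-0.35, SE 0.0594, limma adjusted p = 0.000129). Bcl2l11, which rose in TSA, was not called: 8.01 and 8.11 against 8.01 and 8.03, with a 95% interval of the difference from -0.24 to 0.16. Bak1 stood at 10.04 and 9.92 against 10.10 and 10.07 (0.11, limma adjusted p = 0.161), while its other-strand neighbour Ggnbp1 fell (-2.03, adjusted p = 9.97e-07). Without sgScr replicate 1, both Mcl1 (0.14, adjusted p = 0.0276) and Bak1 (0.16, 0.0146) were called. The other effectors Bax (0.42, adjusted p = 3.04e-05) and Bok (1.05, 0.0166) rose, as did Bbc3 (0.37, 0.00140).

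Among all genes tested with the guide, 67.4% were called. Of 15 further family genes 9 were tested in the guide table, and 7 rose and 0 fell by limma (median 0.42). Bnip3l (0.75) and Bnip3 (0.69), known for mitochondrial clearance, had the smallest p, while Bok rose more. Apaf1, the scaffold of the apoptosome, rose by 0.90 and Ddit3, a stress factor that activates Bcl2l11, rose by 0.85. Both lie on chromosome 10, where the median over all tested genes was 0.42 in sgTrps1. On chromosome 16 it was 0.32, and no member lies on either. All 10 cell division genes rose (summed normalized count 21304 to 22440 in sgScr and 38004 to 40240 in sgTrps1). Basal markers summed to 39808 to 46775 in sgScr and 100240 to 101680 in sgTrps1; the part of either in the members' changes was not tested.

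Organoids were compared by Trps1 and Cdh1 genotype. All Trps1+/+ organoids are Cdh1F/F, so only Cdh1F/F Trps1F/F against Trps1+/+ varies Trps1 alone. Cdh1+/F Trps1F/F against Trps1+/+ varies both genes, and their parts in those differences cannot be told apart. Between the Cdh1 genotypes, both Trps1F/F, the Trps1 level differed too. It was higher in Cdh1F/F by 1.58 at day 14 and 1.40 at day 28 (limma adjusted p = 1.51e-05 and 2.38e-05). Cdh1 genotype and Trps1 level cannot be told apart there. The comparisons against Trps1+/+ share the Trps1+/+ libraries, and those between Cdh1 genotypes share libraries with them too. At day 14, 4 of 10 members were called in Cdh1F/F Trps1F/F (3 up and 1 down, beside 32.8% of 15706 genes), and at day 28, 5 of 10 (2 up and 3 down, beside 43.6%). In Cdh1+/F Trps1F/F, 3 of 10 were called at day 14 (1 up and 2 down, beside 36.6%) and 7 of 10 at day 28 (1 up and 6 down, beside 53.6%). Cdh1F/F against Cdh1+/F, both Trps1F/F, gave 6 of 10 at day 14 (5 up and 1 down, beside 40.8%) and 6 of 10 at day 28 (5 up and 1 down, beside 56.9%). These shares are near those of all genes, and what follows is about which members moved and how far.

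Pmaip1, the p53-inducible BH3-only gene whose product targets MCL1, varied most of all members (SD 1.59 on the log2 scale over the 12 organoid libraries, against 0.11 for Mcl1). In Trps1+/+ it stood at 7.73 and 7.30 at day 14 and at 7.10 and 7.50 at day 28. In Cdh1F/F Trps1F/F it stood at 10.65 and 10.87 at day 14 and at 10.85 and 11.29 at day 28. These 4 libraries lay above all 8 others, and the rise over Trps1+/+ was 9.49-fold at day 14 (log2 difference 3.25, SE 0.187, limma adjusted p = 1.04e-07) and 13.6-fold at day 28 (3.77, limma adjusted p = 2.75e-08). In Cdh1+/F Trps1F/F it stood at 7.72 and 8.04 at day 14, near Trps1+/+ (0.37, 95% interval -0.04 to 0.77, limma adjusted p = 0.146), and at 8.999 and 9.01 at day 28, which is 3.25-fold higher than Trps1+/+ (1.70, limma adjusted p = 7.20e-06). Between the Trps1F/F genotypes, Cdh1F/F was higher by 2.88 at day 14 (limma adjusted p = 9.18e-08) and by 2.07 at day 28 (limma adjusted p = 7.57e-07). The order of the 6 groups was Cdh1F/F Trps1F/F at day 28, the same at day 14, Cdh1+/F Trps1F/F at day 28, the same at day 14, and Trps1+/+ at day 14 and day 28. The first pair of neighbours differed by 0.31 (limma adjusted p = 0.211) and the last pair by 0.21 (limma adjusted p = 0.444), within their spread.

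Trp53 differed from Trps1+/+ by 0.08 and 0.10 in Cdh1F/F Trps1F/F at days 14 and 28 (not called) and fell by 0.30 and 0.33 in Cdh1+/F Trps1F/F. Trp73, a p53 relative of epithelia, differed by -0.28 (not called) and -0.39 (adjusted p = 0.0205) in Cdh1F/F Trps1F/F and by -2.78 and -3.004 (both called) in Cdh1+/F Trps1F/F. Bbc3, like Pmaip1 a p53 target, rose at day 14 (0.56, adjusted p = 0.0190) and fell at day 28 (-0.54, adjusted p = 0.0181) in Cdh1F/F Trps1F/F, and fell at day 28 in Cdh1+/F Trps1F/F (-0.98).

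**Figure D2:**
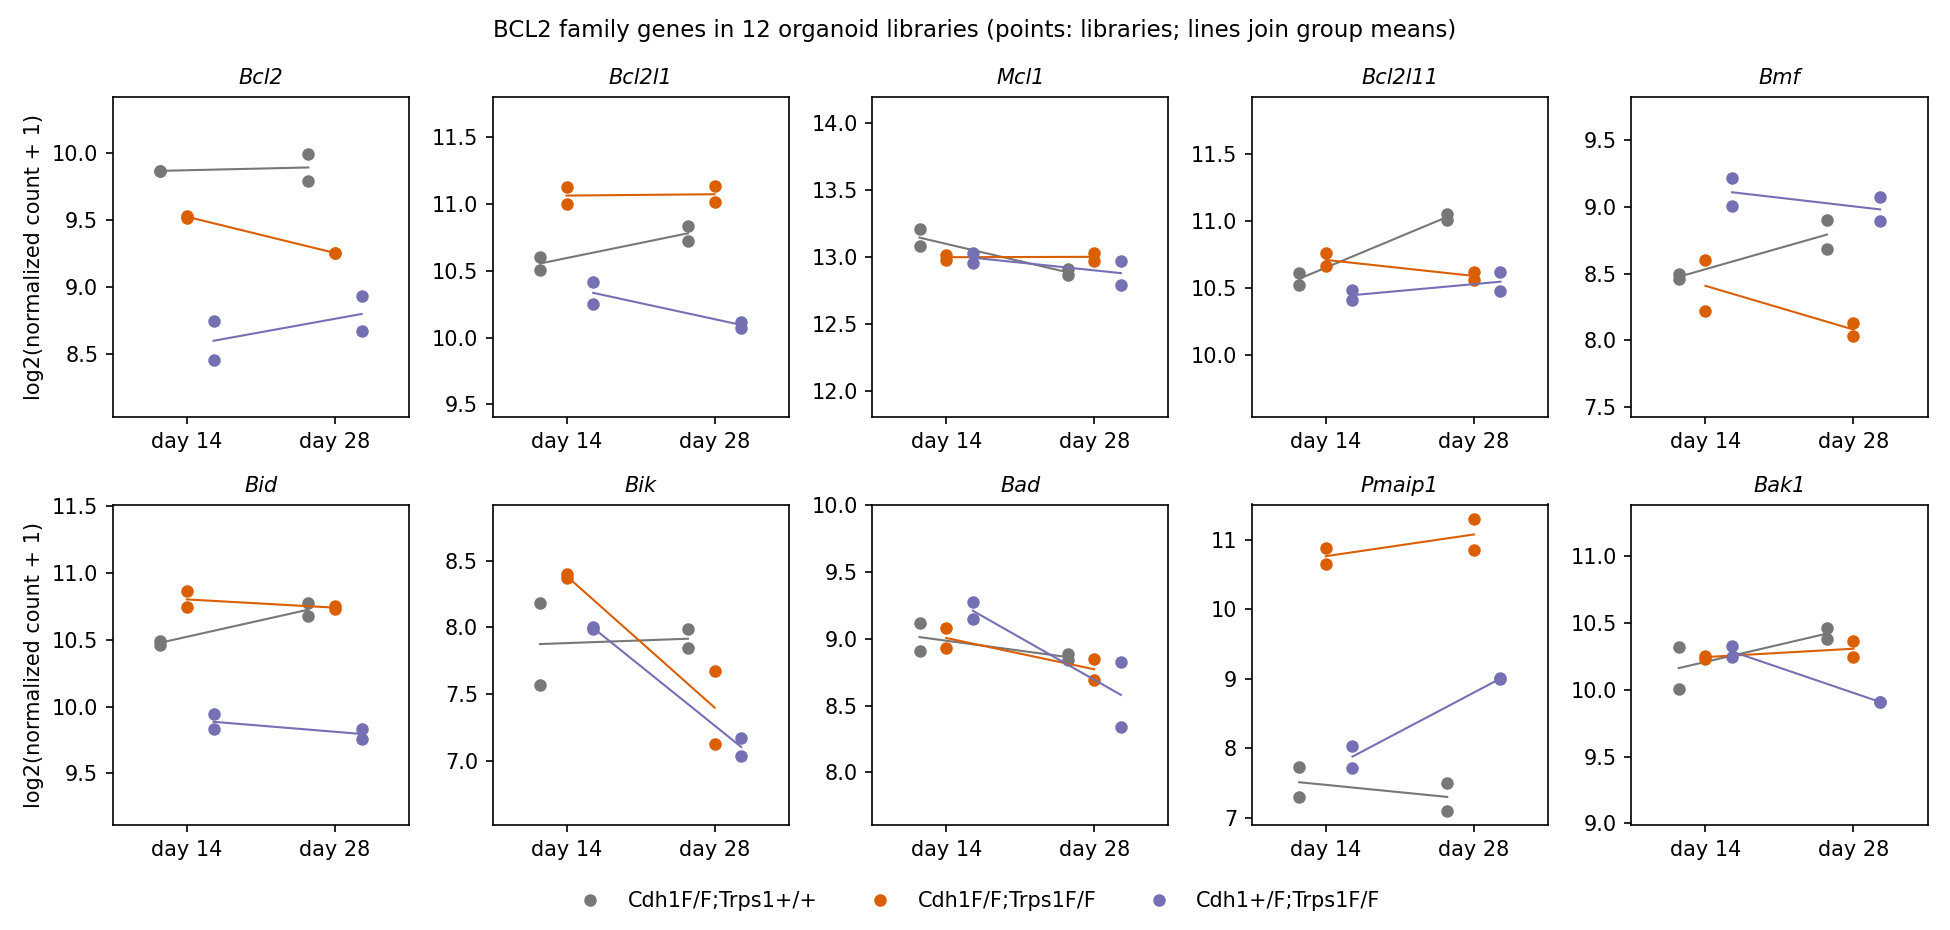
Level of each member, log2(normalized count + 1) on the y axis of its own range, in the 12 organoid libraries at day 14 and day 28; points are libraries, lines join group means and colours are genotypes. Pmaip1 lies between 10.65 and 11.29 in Cdh1F/F Trps1F/F and between 7.10 and 9.01 in the other genotypes, and Bcl2 and Bid are lowest in Cdh1+/F Trps1F/F.

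Bcl2 was lower in both Trps1F/F genotypes than in Trps1+/+. In Trps1+/+ it stood at 9.87 and 9.87 (day 14) and at 9.998 and 9.79 (day 28). In Cdh1F/F Trps1F/F it stood at 9.53 and 9.52, then 9.25 and 9.26. Cdh1+/F Trps1F/F organoids held 8.74 and 8.45, then 8.93 and 8.67. On both days the 3 genotypes did not overlap, with Trps1+/+ highest and Cdh1+/F Trps1F/F lowest. The fall in Cdh1F/F Trps1F/F was 0.34 at day 14 (log2 difference -0.34, limma adjusted p = 0.0427) and larger at day 28 (-0.64, limma adjusted p = 0.000859). With 1 floxed Cdh1 allele (Cdh1+/F Trps1F/F) it was 2.41-fold at day 14 (-1.27, limma adjusted p = 3.55e-06) and 2.14-fold at day 28 (-1.10, limma adjusted p = 6.54e-06). Cdh1F/F exceeded Cdh1+/F by 0.93 at day 14 (limma adjusted p = 4.01e-05) and 0.46 at day 28 (limma adjusted p = 0.00547). The day 14 call in Cdh1F/F Trps1F/F was lost without any 1 of its 4 libraries (adjusted p 0.121 to 0.151), without the filter (0.0636) and without a variance trend (0.0805), and the day 28 difference between the Cdh1 genotypes without Cdh1+/F Trps1F/F library b (0.33, adjusted p = 0.0689).

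Bcl2l1 moved in opposite directions in the Trps1F/F genotypes. In Trps1+/+ it stood at 10.51 and 10.60 (day 14) and at 10.73 and 10.83 (day 28). Those of Cdh1F/F Trps1F/F were 11.12 and 11, then 11.01 and 11.13. The values of Cdh1+/F Trps1F/F were 10.42 and 10.25, then 10.07 and 10.12. All Cdh1F/F Trps1F/F libraries were thus above, and all Cdh1+/F Trps1F/F libraries below, the Trps1+/+ libraries of the same day. Against Trps1+/+ the differences were 0.51 (limma adjusted p = 0.000574) and 0.29 (limma adjusted p = 0.0148) in Cdh1F/F Trps1F/F, and -0.22 (limma adjusted p = 0.0623) and -0.69 (limma adjusted p = 2.26e-05) in Cdh1+/F Trps1F/F, at days 14 and 28. Between the Cdh1 genotypes the difference was 0.73 (limma adjusted p = 1.85e-05) and 0.98 (limma adjusted p = 5.68e-07). The day 28 rise was not called without Trps1+/+ library a (0.24, adjusted p = 0.0971) or Cdh1F/F Trps1F/F replicate 2 (0.23, 0.108), and the day 14 fall in Cdh1+/F Trps1F/F was called with voom (-0.28, 0.0236), with a median shift (-0.26, 0.0345) and without its library a (-0.30, 0.0439).

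Mcl1 was the steadiest member. Its 12 organoid libraries lay between 12.79 and 13.21, and none of the 6 comparisons between genotypes called it, with differences from -0.15 to 0.12. The outer bounds of the 95% intervals of these differences were -0.33 and 0.30, so small changes within the intervals are not excluded. With voom, the day 14 difference of Cdh1+/F Trps1F/F from Trps1+/+ was called (-0.21, adjusted p = 0.0476).

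Bid followed the order of Bcl2l1 at day 14, while at day 28 only Cdh1+/F Trps1F/F stood apart. In Trps1+/+ it stood at 10.49 and 10.46, then 10.77 and 10.68. The Cdh1F/F Trps1F/F libraries held 10.86 and 10.74, then 10.75 and 10.73. In Cdh1+/F Trps1F/F it stood at 9.94 and 9.83, then 9.76 and 9.83, below all other organoid libraries. There Bid fell by 0.59 at day 14 (log2 difference -0.59, limma adjusted p = 7.36e-05) and 0.93 at day 28 (-0.93, limma adjusted p = 6.53e-07) against Trps1+/+. In Cdh1F/F Trps1F/F it rose at day 14 (0.32, limma adjusted p = 0.00678; 0.26 and 0.0853 without its replicate 1) and not at day 28 (0.01, 95% interval -0.16 to 0.19). Cdh1F/F exceeded Cdh1+/F by 0.92 (limma adjusted p = 1.08e-06) and 0.94 (limma adjusted p = 3.53e-07). Bcl2l13, which shares exon positions with Bid on the other strand, was not called in any of these comparisons.

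Bmf went the other way. It stood at 8.49 and 8.46, then 8.68 and 8.90, in Trps1+/+, and at 8.60 and 8.22, then 8.13 and 8.03, in Cdh1F/F Trps1F/F. The 4 Cdh1+/F Trps1F/F libraries held 9.21 and 9.002, then 9.07 and 8.89. It rose in Cdh1+/F Trps1F/F at day 14 (0.63, limma adjusted p = 0.00352) and was not called there at day 28 (0.19, 95% interval -0.12 to 0.49). For Cdh1F/F Trps1F/F, Bmf was not called at day 14 (-0.07, 95% interval -0.37 to 0.24) and fell at day 28 (-0.71, limma adjusted p = 0.00135). Between the Cdh1 genotypes Cdh1F/F was lower by 0.70 and 0.90 on the log2 scale (log2 differences -0.70 and -0.90, limma adjusted p = 0.00142 and 0.000119), the only member called lower there on both days.

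Bcl2l11 stood at 10.61 and 10.52, then 11.05 and 11.01, in Trps1+/+, and at 10.76 and 10.66, then 10.56 and 10.62, in Cdh1F/F Trps1F/F. The 4 Cdh1+/F Trps1F/F libraries held 10.41 and 10.48, then 10.47 and 10.62. At day 28 both Trps1F/F genotypes lay below Trps1+/+, by -0.44 (limma adjusted p = 0.000609) and -0.48 (limma adjusted p = 0.000205). At day 14 neither was called (0.14 and -0.12), while they differed from each other by 0.26 (limma adjusted p = 0.0165), a call lost without Cdh1F/F Trps1F/F replicate 1 (0.22, adjusted p = 0.134) or Cdh1+/F Trps1F/F library a (0.23, 0.0958).

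Bik, an endoplasmic reticulum BH3-only gene, had the largest standard error of the members in the organoid model (0.205). It stood at 7.57 and 8.18, then 7.99 and 7.84, in Trps1+/+, and at 8.37 and 8.40, then 7.68 and 7.13, in Cdh1F/F Trps1F/F. The 4 Cdh1+/F Trps1F/F libraries held 8.01 and 7.99, then 7.04 and 7.17. It fell in Cdh1+/F Trps1F/F at day 28 (-0.81, limma adjusted p = 0.00489). In Cdh1F/F Trps1F/F it differed by 0.51 at day 14 (limma adjusted p = 0.0751) and -0.51 at day 28 (limma adjusted p = 0.0581), neither of them called. The first was called without Trps1+/+ library b (0.81, adjusted p = 0.0155), with quantile normalization (0.56, 0.0472) and when only these 4 libraries were fitted (0.0243), and the second without replicate 1 of Cdh1F/F Trps1F/F (-0.79, 0.0114) and with voom (-0.56, 0.0427). Between the Cdh1 genotypes Bik was not called (0.39 and 0.29). It was called there with quantile normalization (0.53, 0.0441 and 0.70, 0.00776), at day 14 when only these 4 libraries were fitted (0.0165), and at day 28 without Cdh1F/F Trps1F/F replicate 2 (0.57, 0.0423).

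Bad ran from 8.34 to 9.27 over the 12 libraries and no genotype comparison called it (differences from -0.28 to 0.20). With voom it was lower in Cdh1+/F Trps1F/F than in Trps1+/+ at day 28 (-0.45, adjusted p = 0.0161). Without Cdh1+/F Trps1F/F library a it was called lower there than in Trps1+/+ (-0.53, 0.00970) and than in Cdh1F/F Trps1F/F (0.44 for Cdh1F/F against Cdh1+/F, 0.0233). Bak1 ran from 9.91 to 10.46. At day 14 it was called in Cdh1+/F Trps1F/F only without Trps1+/+ library b (0.28, adjusted p = 0.0431; 0.12 and 0.354 with all libraries). Both of its day 28 libraries in Cdh1+/F Trps1F/F stood at 9.91, the lowest of all, against 10.46 and 10.38 in Trps1+/+ (-0.51, limma adjusted p = 0.000740) and 10.37 and 10.25 in Cdh1F/F Trps1F/F (0.40 for Cdh1F/F against Cdh1+/F, limma adjusted p = 0.00375). Bok rose in both Trps1F/F genotypes on both days, by 0.83 (adjusted p = 0.00578) and 1.52 (4.66e-05) in Cdh1F/F and by 0.73 (0.0106) and 1.10 (0.000411) in Cdh1+/F. Bax was called only in Cdh1+/F Trps1F/F at day 28 (-0.30, adjusted p = 0.0463) among the 4 comparisons with Trps1+/+.

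Markers of other cells moved with genotype in the organoids. Fibroblast markers summed to 91951 to 99707 in Trps1+/+, 23006 to 23393 in Cdh1F/F Trps1F/F and 655230 to 743110 in Cdh1+/F Trps1F/F at day 14. At day 28 the sums were 26946 to 41731, 9521 to 10532 and 361130 to 430740. None of the 10 markers was at 0 in any group, and against Trps1+/+ they fell in 10 and 9 of 10 cases in Cdh1F/F Trps1F/F and rose in 8 and 10 of 10 in Cdh1+/F Trps1F/F at days 14 and 28. Luminal markers summed to 54864 to 64974, 95779 to 98143 and 66195 to 68749 at day 14 and to 57145 to 60881, 95428 to 95690 and 34855 to 39682 at day 28, in the same order. Basal markers summed to 82250 to 83338 in Trps1+/+ and 46159 to 50063 in Cdh1+/F Trps1F/F at day 14, and to 75672 to 82051 and 31408 to 34075 at day 28. In Cdh1F/F Trps1F/F they summed to 103760 to 106520 and 88078 to 120680. Against Trps1+/+, 3 basal markers rose and 4 fell of 8 at day 14, and 3 rose and 5 fell at day 28, in Cdh1+/F Trps1F/F. Skeletal muscle markers at day 28 summed to 5958 to 8735 in Trps1+/+, 865 to 1413 in Cdh1F/F Trps1F/F and 47476 to 61629 in Cdh1+/F Trps1F/F. Cell division genes summed to 7895 to 8072, 10537 to 10659 and 4968 to 5611 at day 14 and to 5958 to 7776, 22096 to 25090 and 4779 to 5886 at day 28. Mean Pmaip1, Bcl2l1 and Bid were highest where the fibroblast sum was lowest on both days, though Bid libraries overlapped Trps1+/+ at day 28. The luminal and cell division sums were highest in that same genotype, Cdh1F/F Trps1F/F, on both days. Mean Bmf was highest where the fibroblast sum was highest on both days. Bcl2 and Bid were lowest where the basal sum was lowest on both days. The part of these cells and of cell division in the members' differences was not tested.

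**Figure D3:**
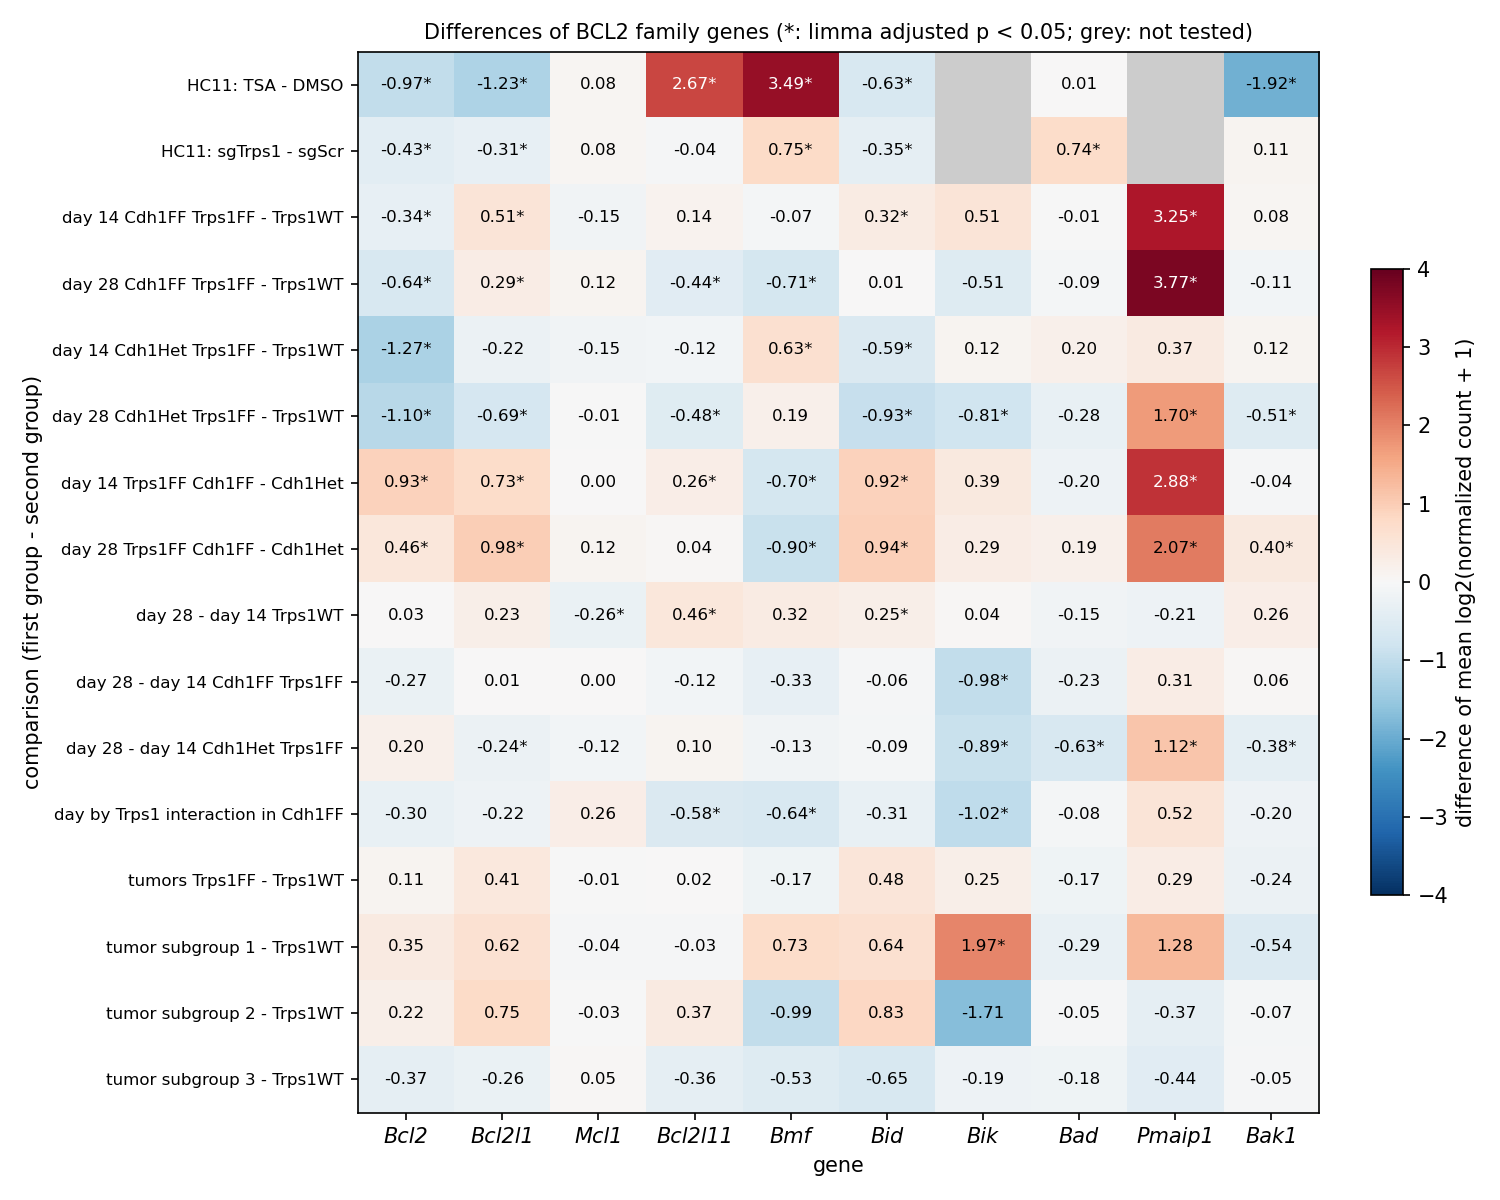
Difference of mean log2(normalized count + 1) for each member (columns) in each of 16 comparisons (rows, first group minus second); red is higher in the first group, blue lower, grey not tested, and * marks a limma adjusted p under 0.05. Pmaip1 has the largest organoid differences (3.25 and 3.77), Bmf the largest of the cell line (3.49), and Mcl1 is marked in 1 row.

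Day 28 was compared with day 14 within each genotype, and in Trps1+/+ the share of members called was near that of all genes. In Trps1+/+, 3 of 10 were called from day 14 to day 28 (2 up and 1 down, beside 26.2% of all genes). Bcl2l11 rose by 0.46 (limma adjusted p = 0.000978) and Bid by 0.25 (limma adjusted p = 0.0348), and Mcl1 fell (-0.26, limma adjusted p = 0.0336). The Bcl2l11 call stood without each library in turn. The Bid call was lost without any 1 of the 4 libraries (adjusted p 0.0535 to 0.192), and the Mcl1 call without library a of day 14 (-0.20, 0.207), library a of day 28 (-0.28, 0.0806) or library b of day 28 (-0.24, 0.138) and with both scalings (-0.22, 0.0873 for the median shift; -0.15, 0.199 for quantiles). Bcl2l1 (0.23, limma adjusted p = 0.0702) and Bak1 (0.26, limma adjusted p = 0.0707) were not called, but were with the median shift (0.26, 0.0427 and 0.30, 0.0397), quantiles (0.25, 0.0427 and 0.27, 0.0499) and voom (0.27, 0.0287 and 0.30, 0.0302). Bak1 was also called without library b of day 14 (0.41, 0.0115). In Cdh1F/F Trps1F/F only Bik was called of 10 (0 up and 1 down, beside 35.7%), and it fell (-0.98, limma adjusted p = 0.00315). Without replicate 2 of day 14, Bmf was called as well (-0.52, adjusted p = 0.0352).

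In Cdh1+/F Trps1F/F, 5 of 10 members were called over time (1 up and 4 down, beside 41.1%). Pmaip1 rose by 1.12 (limma adjusted p = 0.000659), while Bik (-0.89, limma adjusted p = 0.00456), Bad (-0.63, limma adjusted p = 0.00491), Bak1 (-0.38, limma adjusted p = 0.00892) and Bcl2l1 (-0.24, limma adjusted p = 0.0397) fell. Gpr137 and Ggnbp1, on the other strand of Bad and Bak1, fell as well (-0.33 and -0.54). The Bad call was lost without library b of day 28 (-0.39, adjusted p = 0.0595) and the Bak1 call without library b of day 14 (-0.34, 0.0573). The Bcl2l1 call was lost without library a of day 14 (-0.16, 0.266), library a of day 28 (-0.22, 0.148) or library b of day 28 (-0.26, 0.0967), and with the median shift (-0.20, 0.0801). Skeletal muscle markers rose with time in this genotype, from 17243 to 18952 at day 14 to 47476 to 61629 at day 28, in 8 of 8 cases; their part was not tested.

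The effect of Trps1F/F in Cdh1F/F organoids differed between days for 3 of 10 members (0 up and 3 down, beside 18.2% of all genes). The day 28 difference minus the day 14 difference was -0.58 for Bcl2l11 (limma adjusted p = 0.00483), -0.64 for Bmf (limma adjusted p = 0.0420) and -1.02 for Bik (limma adjusted p = 0.0288). For Pmaip1 it was 0.52 (95% interval -0.05 to 1.10, limma adjusted p = 0.185). Bbc3 had a difference of the same direction (-1.10, adjusted p = 0.00789). The Bcl2l11 call stood without each of the 8 libraries in turn. That of Bmf was lost without any of 5 libraries (adjusted p 0.0810 to 0.189) and that of Bik without any of 5 (0.0625 to 0.133), among them, for both, Trps1+/+ library a and Cdh1F/F Trps1F/F replicate 1 of day 14 and Cdh1F/F Trps1F/F replicate 2 of day 28. Without a variance trend neither was called (0.0827 and 0.0726), and Bid was called with voom (-0.36, adjusted p = 0.0329).

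Beyond the members, Bcl2l14, a divergent family gene of epithelia, rose most in the organoids, by 2.51 and 3.97 in Cdh1F/F Trps1F/F and by 3.99 and 4.22 in Cdh1+/F Trps1F/F at days 14 and 28. Bcl2l15, its relative of the gut lining, rose by 0.99 and 2.49 in Cdh1F/F Trps1F/F and by 0.83 and 1.83 in Cdh1+/F Trps1F/F. Of the 10 further family genes tested, 4 rose and 1 fell at day 14 and 3 rose and 1 fell at day 28 in Cdh1F/F Trps1F/F; in Cdh1+/F Trps1F/F 4 rose and 2 fell on each day. Of 19 caspase and apoptosome genes, 4 rose and 2 fell at day 14 and 8 rose and 0 fell at day 28 in Cdh1F/F Trps1F/F, with Casp8 at 0.56 and 0.91 and Birc5 at 1.64 on day 28. In Cdh1+/F Trps1F/F 6 rose and 3 fell at day 14 and 2 rose and 2 fell at day 28, with Birc5 at -1.08 and -0.89. Of 21 regulators, 5 rose and 6 fell, then 2 rose and 5 fell, in Cdh1F/F Trps1F/F, with the death receptor gene Fas at -0.80 and -0.90. In Cdh1+/F Trps1F/F 3 rose and 6 fell, then 2 rose and 5 fell, with Foxo1 at -1.08 and -0.86. Beside these list counts, the shares of all genes called at days 14 and 28 were 32.8% and 43.6% in Cdh1F/F Trps1F/F. They were 36.6% and 53.6% in Cdh1+/F Trps1F/F.

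The genes most like a member over the 12 organoid libraries were those with the smallest root mean square (RMS) difference of mean-centred log2 values among 15706 genes. For Pmaip1 they were Tfcp2l1 (RMS 0.43), Alox15 (0.43) and Pdk4 (0.51). For Bcl2 (SD 0.53) they were Tsc22d1 (0.15), Dock9 (0.15) and Trim2 (0.16), and for Bik (SD 0.47) Jak3 (0.13), 2310003H01Rik (0.14) and Abtb1 (0.15). The libraries share their genotypes and days, so this describes these libraries only.

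In tumors, no member was called between Trps1F/F and Trps1+/+ mice: 0 of 10 with limma, 0 at an unadjusted p under 0.05 and 0 with voom. The background was 0% of 14929 genes, with 778 at an unadjusted p under 0.05 and 0 called with voom. Trps1 itself stood at 9.90 to 12.63 in 6 Trps1F/F mice and 11.46 to 12.94 in 3 Trps1+/+ mice (log2 difference -1.26, limma adjusted p = 0.804). The 2 tumors labelled Trps1F/F of subgroup 3 stood at 11.91 and 12.63, within the Trps1+/+ range (log2 difference -0.08, 95% interval -1.56 to 1.41). Their Trps1 reads thus do not show a loss of Trps1, and the wide interval does not exclude one. The label is a genotype, which reads of the whole gene in bulk tumor cannot test. In subgroups 1 and 2 Trps1 differed from Trps1+/+ by -1.70 and -1.66, neither called (limma adjusted p = 0.0836 and 0.333). Subgroup 1 mice stood at 9.90, 10.17 and 11.88, the highest of them also within the Trps1+/+ range, and subgroup 2 mice at 10.24 and 11.13, below it. The comparisons of subgroups 1 and 2 given further on leave the subgroup 3 tumors out of the groups compared. Mcl1 stood at 12.30, 12.72 and 13.12 (lowest, median and highest mouse) in Trps1F/F and at 12.65, 12.66 and 12.90 in Trps1+/+, with a 95% interval of the difference from -0.41 to 0.39. Bcl2 stood at 8.92, 9.81 and 10.82 in Trps1F/F and 9.95, 9.79 and 9.60 in Trps1+/+ (95% interval -0.68 to 0.90). Bcl2l1 stood at 9.99, 11.23 and 11.76 in Trps1F/F and 10.71, 10.51 and 10.90 in Trps1+/+ (95% interval -0.33 to 1.15). For all 3 survival genes the Trps1F/F mice spanned the Trps1+/+ mice.

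Among the BH3-only genes, Bid came nearest to a difference, with 9.39, 9.88 and 10.21 in Trps1F/F and 9.41, 9.10 and 9.59 in Trps1+/+ (log2 difference 0.48, 95% interval -0.03 to 0.99, limma adjusted p = 0.804). Pmaip1, so different between organoid genotypes, stood at 7.29, 7.91 and 9.40 in Trps1F/F and 9.49, 6.87 and 7.38 in Trps1+/+ (0.29, 95% interval -1.24 to 1.81). Bmf stood at 8.50, 9.42 and 10.66 against 10.67, 9.68 and 8.66 (95% interval -1.50 to 1.15), and Bik at 3.74, 6.14 and 7.57 against 6.11, 5.48 and 5.24 (95% interval -1.88 to 2.38). In each of these genes the range of the Trps1F/F mice overlapped that of the Trps1+/+ mice. Bcl2l11 (95% interval -0.64 to 0.69), Bad (-0.59 to 0.25) and Bak1 (-0.77 to 0.29) were not called either, nor were Bax (-0.32), Bok (-0.55) and Bbc3 (0.52).

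Within the Trps1F/F tumors, Bik split the labelled subgroups. In subgroup 1 it stood at 7.51, 7.57, 7.68 and 7.63, the last pair from mouse 18LCO025. In subgroup 2 it stood at 3.74 and 4.06, and in subgroup 3 at 5.53 and 5.32. The 3 Trps1+/+ tumors stood at 6.11, 5.48 and 5.24, below all of subgroup 1 and above all of subgroup 2. Against Trps1+/+, subgroup 1 was 3.91-fold higher (log2 difference 1.97, SE 0.322, limma adjusted p = 0.00669). It was the 1 member of 10 called there (1 up and 0 down, beside 15.7% of 15566 genes), and 3 members had an unadjusted p under 0.05. In subgroup 2 the difference was -1.71 (SE 0.360) and was not called (limma adjusted p = 0.176), with 0 of 10 members called by limma or voom, 2 at an unadjusted p under 0.05, and a background of 0% (2081 genes at an unadjusted p under 0.05). The authors' deposited table for subgroup 2 gives Bik a log2 fold change of -1.82 with an adjusted p of 0.00125. In subgroup 3, labelled Trps1F/F but with Trps1 near the Trps1+/+ level, 0 of 10 were called by limma or voom (0 at an unadjusted p under 0.05), beside 0.00642% of all genes. How the subgroups were drawn is not given, so if expression drew them these are no independent results.

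Other members differed less between subgroups. Bmf, as means per mouse, ran from 9.98 to 10.66 in subgroup 1, from 8.50 to 8.86 in subgroup 2 and from 8.75 to 9.53 in subgroup 3. Trps1+/+ mice spanned 8.66 to 10.67. Against them the differences were 0.73, -0.99 and -0.53, none called (limma adjusted p = 0.322, 0.451 and 0.898). Pmaip1 stood at 9.40, 8.20, 10.10 and 9.89 in subgroup 1, at 7.63 and 7.47 in subgroup 2 and at 7.65 and 7.29 in subgroup 3. Subgroup 1 against Trps1+/+ (9.49, 6.87 and 7.38) differed by 1.28 (95% interval -0.28 to 2.84, limma adjusted p = 0.235), and was called without Trps1+/+ mouse 18LCO046, which held the 9.49 (2.07, adjusted p = 0.0340). Bcl2l1 stood at 11.32, 11.16, 11.84 and 11.17 in subgroup 1, above the 10.71, 10.51 and 10.90 of Trps1+/+ (0.62, limma adjusted p = 0.139), and was called with voom (0.77, adjusted p = 0.0474). Subgroup 2 was as high, at 11.16 and 11.76 (0.75, limma adjusted p = 0.326), so the higher level was not particular to subgroup 1. Bak1 stood at 10.22, 9.88, 10.19 and 10.48 in subgroup 1, below the 10.68, 10.64 and 10.72 of Trps1+/+ (-0.54, limma adjusted p = 0.138). Bid had its lowest tumor value, 8.03, in the subgroup 3 tumor of mouse 18LCO025, whose subgroup 1 tumors stood at 10.50 and 10.03.

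**Figure D4:**
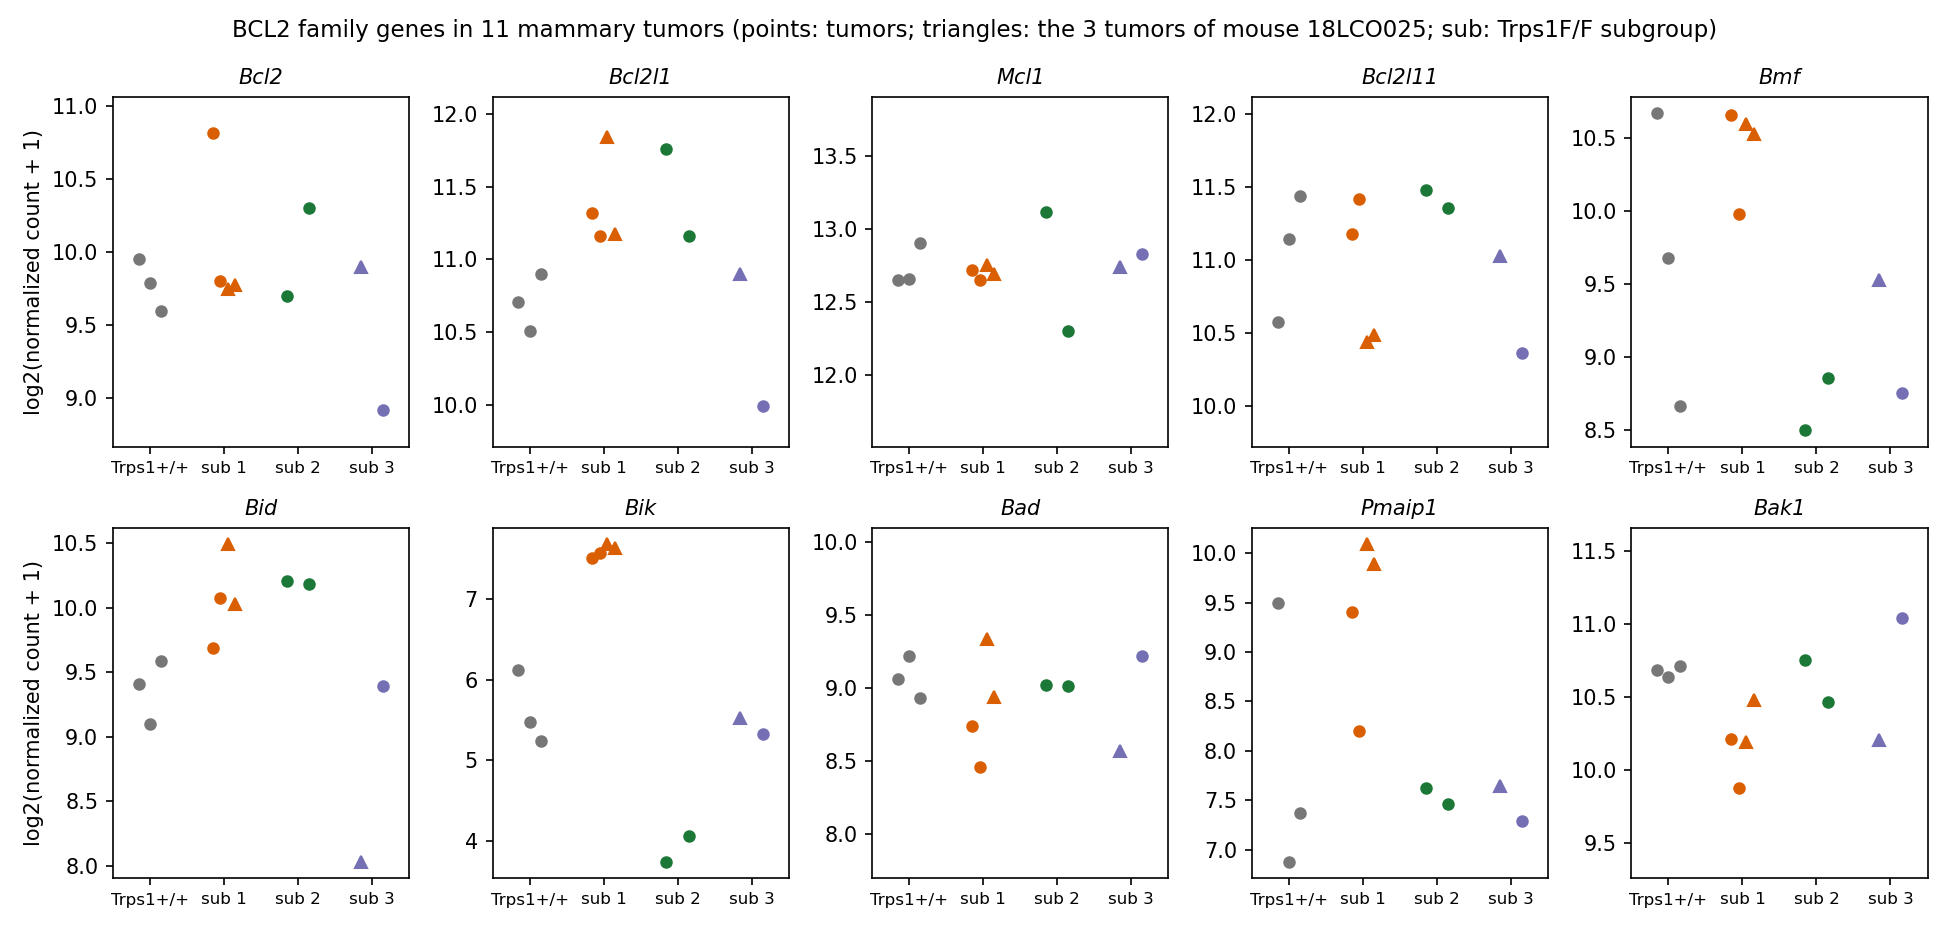
Level of each member, log2(normalized count + 1) on the y axis of its own range, in 11 mammary tumors by genotype and labelled subgroup; points are tumors and triangles are the 3 tumors of mouse 18LCO025. Bik lies between 7.51 and 7.68 in subgroup 1, at 3.74 and 4.06 in subgroup 2 and between 5.24 and 6.11 elsewhere, while Mcl1 overlaps between all 4 groups.

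Subgroup 1 also stood apart in epithelial genes. Cdh1 was higher than in Trps1+/+ by 4.46 on the log2 scale (limma adjusted p = 0.0289), standing at 12.76, 13.24, 13.74 and 13.06 against 10.64, 8.35 and 7.02, although all these tumors are labelled Cdh1F/F with WAP-cre. Luminal markers rose in 6 of 11 cases and summed to 66339 to 109230 in subgroup 1 against 10181 to 30557 in Trps1+/+, 11361 to 25888 in subgroup 2 and 2121 to 23360 in subgroup 3. Fibroblast sums overlapped, with 79901 to 627260 in subgroup 1 and 393950 to 1106300 in Trps1+/+. Macrophage markers (1 rose and 4 fell of 10) summed to 39347 to 49482 in subgroup 1 and 98613 to 134670 in Trps1+/+. Endothelial markers (0 rose and 1 fell of 9) summed to 4899 to 10293 and 13044 to 16870. None of the markers of these 4 lists was at 0 in any group, and the part of cell content in the Bik difference was not tested. Among all genes tested in subgroup 1, 15.7% were called. Of 13 further family genes tested, 2 rose and 1 fell in subgroup 1: Bcl2l14 (6.15, adjusted p = 0.000721), Bcl2l15 (2.35, 0.0392) and Bok (-1.46, 0.0212). Of 19 caspase and apoptosome genes, 1 rose (Casp2, 0.67) and 2 fell (Apaf1, -1.33, and Htra2, -0.64). Of 19 regulators tested, 3 rose and 1 fell: Dynll2, which encodes the light chain that holds BMF (0.83), Fas (1.43) and Foxo4 (0.48) rose, and E2f1 fell (-1.04).

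The authors' deposited comparisons, made on the same libraries, called the same members in the same direction in 5 tables: 6 members in TSA, 5 with the guide, 4 and 5 in Cdh1F/F Trps1F/F organoids at days 14 and 28, and Bik in tumor subgroup 1. Being made from the same reads, they are not independent of the values above. The annotated spans of the members whose differences were largest are chromosome 2, 118528757 to 118549687 (Bmf) and 128126038 to 128162547 (Bcl2l11), chromosome 17, 27019810 to 27029009 (Bak1), chromosome 18, 66458533 to 66465565 (Pmaip1) and chromosome 15, 83526862 to 83544634 (Bik). The other members lie on chromosome 1, 106538178 to 106714274 (Bcl2), chromosome 2, 152780668 to 152831728 (Bcl2l1), chromosome 3, 95658788 to 95663176 (Mcl1), chromosome 6, 120891930 to 120916853 (Bid), and chromosome 19, 6941861 to 6951899 (Bad), all in GENCODE M21 on GRCm38.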

How the data were processed

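Expression was measured by RNA-seq in 33 mouse libraries. RNA was extracted with the AllPrep kit and made into TruSeq libraries, per the labels' protocols. The submitters' processing notes name TopHat, HTSeq and GRCm38; the annotation, the roles of these tools and the strand are not given here. The authors deposited log2 values of normalized counts: each value equalled log2(normalized count + 1), with whole reads times 1 factor per library (100% of values within 0.01 reads or a share of 1e-05). Rows with symbols turned into dates (12 or 13 a table) or without a symbol (at most 1) were left out. The authors' own comparison tables, also deposited, hold log2 fold changes and p-values.

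Tests used limma 3.58.1 in R 4.3.3 with moderated variances that follow a trend in mean level, on the deposited log2 values, over all genes with a normalized count of at least 10 in as many libraries as the smallest group, and p-values were adjusted over all of them (threshold 0.05). The 6 organoid groups were in 1 model, and tumors were averaged per mouse, or per mouse within a subgroup. Log2 differences understate changes of low genes. The fits were checked on simulated data. The 10 members, Trps1, Cdh1, Bax, Bok and Bbc3 are named in each main comparison, and from 3 lists up to 4 genes with the smallest p; other list genes were named after their values were seen. Members and lists were chosen with earlier results of these data known. Alternatives were a pseudocount of 5, no filter, a median shift, quantile normalization, no variance trend, voom on recovered reads, a replicate block, only the compared groups, single tumors and leaving out each library. In the organoid table, 8 columns share headers in pairs and are called library a and b in column order. Chi-square per degree of freedom within groups was 1.56 to 531, so no libraries were the same within sampling noise. No source names molecular identifiers, so floors cover counting error only.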

Additional observations from a re-analysis of the deposited data

Results flagged for a closer look

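In the 6 Trps1F/F tumor mice, Bcl2l1 was lowest in mouse 18LCO052 at 9.99 on the log2 scale, whose gap to the next mouse was 0.660 of the group's range, above the critical 0.625 for 6 values. About 1 in 20 such groups passes by chance, and 10 genes were looked at. The difference between Trps1F/F and Trps1+/+ in Cdh1F/F organoids itself differed between day 28 and day 14 for 3 members by limma's interaction term: Bcl2l11 (-0.58, adjusted p = 0.00483), Bmf (-0.64, 0.0420) and Bik (-1.02, 0.0288).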

How the results depend on the processing

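Counts of called members kept within 1.5 times in 16 comparisons with a pseudocount of 5, no filter, a median shift and quantile normalization. Without a variance trend, 1 member was called over time in Trps1+/+ and 1 for the day by Trps1 difference, in place of 3 each. With only the compared groups fitted, 1 was called over time in Trps1+/+ and 2 in Cdh1F/F Trps1F/F (in place of 3 and 1). With voom, 5 were called in Cdh1+/F Trps1F/F at day 14 and 2 in tumor subgroup 1 (in place of 3 and 1). The cause was not tested. Leaving out 1 library or mouse, counts ran from 2 to 4 for Cdh1F/F Trps1F/F at day 14, from 1 to 3 over time in Trps1+/+, from 1 to 2 in Cdh1F/F Trps1F/F and from 3 to 4 in Cdh1+/F Trps1F/F, from 1 to 3 for the day by Trps1 difference and from 1 to 2 in tumor subgroup 1, with fewer samples in each fit. Of single member results, 725 kept their side of the threshold when 1 library was left out, 32 lost and 13 gained a call; over the other settings 1070 kept it, 18 lost and 22 gained one. None changed direction while called. Same-numbered HC11 libraries did not deviate together (correlations -0.08, -0.0032 and -0.06 for TSA, -0.20 for the guides), so numbers were not taken as pairs. With the replicate block, 6 members in TSA, 5 with the guide and 1 over time in Cdh1F/F Trps1F/F were called, as without it (10888, 8192 and 5581 of all genes); with crossed numbers, chosen after seeing the data, 8770 genes were called with the guide. No paired analysis was possible because the other organoid libraries carry no numbers and no Trps1F/F tumor shares a mouse with a Trps1+/+ tumor. Mouse 18LCO025 entered the subgroup model as 1 unit in subgroup 1 and 1 in subgroup 3. Groups of 2 or 3 libraries limit the precision, and HC11 libraries held 0 to 2 reads of Bik and 0 to 5 of Pmaip1, where 3 reads equal 1.55 to 3.36 normalized counts.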
